A study of Mus musculus with 4 samples.

Results

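Mitosis and spindle genes encode the machinery that condenses, aligns and separates the chromosomes and then divides the cell. The 55 genes described here were chosen by name. They comprise cyclins and the control of CDK1, mitotic kinases, the spindle checkpoint, the anaphase-promoting complex (APC/C) with the proteins of sister separation, the chromosomal passenger complex, kinesins, centromere and kinetochore proteins, spindle microtubule proteins, cytokinesis proteins, and 3 genes of chromosome structure and transcription. All 55 were found among the 31806 gene names on the array, as 74 probes, with 1 probe for 40 of the genes and several for 15. Expression was measured in mouse embryonic fibroblasts (MEFs), primary cells grown from embryos, in logarithmic growth. There were 4 groups of C57BL/6J origin with 1 array each: CycG2-/- (labelled G2KO), CycG2+/+ (labelled G2WT), CycG1-/-CycG2-/- (labelled G1G2KO, here DKO) and CycG1+/+CycG2+/+ (labelled G1G2WT, here WT of the DKO comparison). The deletions are those of the whole mouse, and per the study's methods all protein coding exons of Ccng1 were removed. The sources used here do not say how many embryos went into an array, whether WT and knockout embryos were littermates, or at which passage the RNA was taken. By the study's account, Xist was higher in its G2KO MEFs because these were of female origin. Sex thus differed between the cultures of that comparison as the study describes it. No Xist value is given here. The labels of the G2KO comparison are in doubt. The deposited arrays run opposite to the direction the study gives for G2KO: En2 and Sox2, which it lists as higher in G2KO, were lower on the array labelled G2KO than on the array labelled G2WT, and Pdgfra and Cdkn2b, which it lists as lower, were higher. In the DKO comparison the genes listed, such as Wt1 and Krt18, ran the study's way. The log2 ratios of labelled G2KO over labelled G2WT were -9.15 for En2, at most -8.49 for Sox2, at least 7.93 for Pdgfra and at least 9.15 for Cdkn2b. The pair thus reads as exchanged, and arrays are named by their labels throughout. The main counts and medians drawn from this pair are given with the labels exchanged too. Other values, among them most of those of marker lists and single genes, are given by the labels only. Each group has 1 array, so no ratio below has a replicate error or a test, and a ratio compares 2 cultures and not 2 genotypes.

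As background on the cell cycle, most mitosis genes are transcribed in G2 and M phase, and their mRNA is low in cells that are resting or in G1. In G1 the DREAM complex holds their promoters silent, and later B-MYB with the MuvB core and then FOXM1 activate the same promoters. The mRNA of these genes in a culture therefore follows the share of dividing cells, and in such bulk RNA a smaller share of mitotic cells cannot be told apart from less mRNA per cell. Cyclin G1 and cyclin G2 are unconventional cyclins, both linked to the DNA damage response and to phosphatase PP2A, and Ccng1 is a p53 target gene.

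The promoters of the members are shown first, since the shared promoter elements are what the choice of genes by name did not use. RefSeq promoter windows (250 bases before to 50 bases after the transcript start, build GRCm38.p6) were found for 47 of the 55 genes, with Sgol1 matched under its present symbol Sgo1. A gene with several windows was counted once, as holding an element if any of its windows did. Ccna2, Cdc25c, Pbk, Aurkb, Incenp, Kif20a, Spc24 and Tpx2 had no entry in the table. The letters TTTGAA were taken as the cell cycle genes homology region (CHR), the element bound by DREAM and B-MYB-MuvB. CCAAT is the box bound by NF-Y. Other spellings of a CHR were not searched, so a window without TTTGAA is not shown to lack one. The 100 bases upstream of the start are given 5′ to 3′ on the gene's strand for 7 members, with TTTGAA and CCAAT in capitals on either strand (TTCAAA and ATTGG are their reverse complements). The first 5 stand for the cyclins, CDK1, the APC/C and the kinesins. For Bub3 and Gtse1, which have several windows, 1 is printed. Bub3 is shown as a gene whose level differed little between the arrays, and Gtse1 as the gene with the largest DKO ratio. The windows lie at chr10:69352913-69353012 (minus strand) for Cdk1, chr13:100786487-100786586 (minus) for Ccnb1, chr4:118437344-118437443 (minus) for Cdc20, chr2:164769829-164769928 (plus) for Ube2c, chr19:37376282-37376381 (plus) for Kif11, chr7:131560270-131560369 (plus) for Bub3 and chr15:85859607-85859706 (plus) for Gtse1.
Cdk1: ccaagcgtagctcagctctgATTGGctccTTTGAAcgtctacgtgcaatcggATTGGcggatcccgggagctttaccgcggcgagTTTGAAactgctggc
Ccnb1: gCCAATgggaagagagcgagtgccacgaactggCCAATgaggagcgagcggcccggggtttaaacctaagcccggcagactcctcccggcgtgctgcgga
Cdc20: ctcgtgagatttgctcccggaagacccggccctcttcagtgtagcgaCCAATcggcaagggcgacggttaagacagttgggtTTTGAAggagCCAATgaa
Ube2c: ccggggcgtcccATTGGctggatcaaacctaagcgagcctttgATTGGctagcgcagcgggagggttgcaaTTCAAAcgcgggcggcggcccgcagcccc
Kif11: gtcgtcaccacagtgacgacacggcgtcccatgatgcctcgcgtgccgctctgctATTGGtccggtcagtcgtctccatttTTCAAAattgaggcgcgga
Bub3: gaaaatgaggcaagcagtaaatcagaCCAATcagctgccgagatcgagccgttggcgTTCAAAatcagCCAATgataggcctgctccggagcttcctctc
Gtse1: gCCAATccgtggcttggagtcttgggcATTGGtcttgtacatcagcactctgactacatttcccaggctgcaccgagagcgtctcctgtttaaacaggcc

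Over the full windows, TTTGAA stood in a promoter of 30 of the 47 genes (63.8%), against 20.2% of all 27025 genes of the table. It stood in 14.8% of the 9928 genes measured on all 4 arrays that were found there by symbol. Only the members were matched by accession too. CCAAT stood in 36 (76.6%), against 41.1% of all genes, 56.5% of further mitosis genes from a separate list and 68% of DNA replication genes. Both elements stood in the same promoter in 26 genes (55.3%), against 7.97% of all genes. The letters GGCGG, the core of CDE-like and E2F-type elements, stood in 43 (91.5%), but also in 79.9% of those measured on all 4 arrays. Motifs were searched on both strands, and neighbouring matches can share bases. TTTGAA stood in 43.5% of 69 further mitosis genes and in 12% of 25 DNA replication genes. A match is a description of the letters only. The median log2 ratio of the array labelled G2WT over the WT of the DKO comparison was 2.96 for the 30 members with TTTGAA and 2.75 for the 17 without it, and that of the array labelled G2KO over DKO was 1.83 and 1.52. Both differences are small beside the range among the members.

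**Figure D1:**
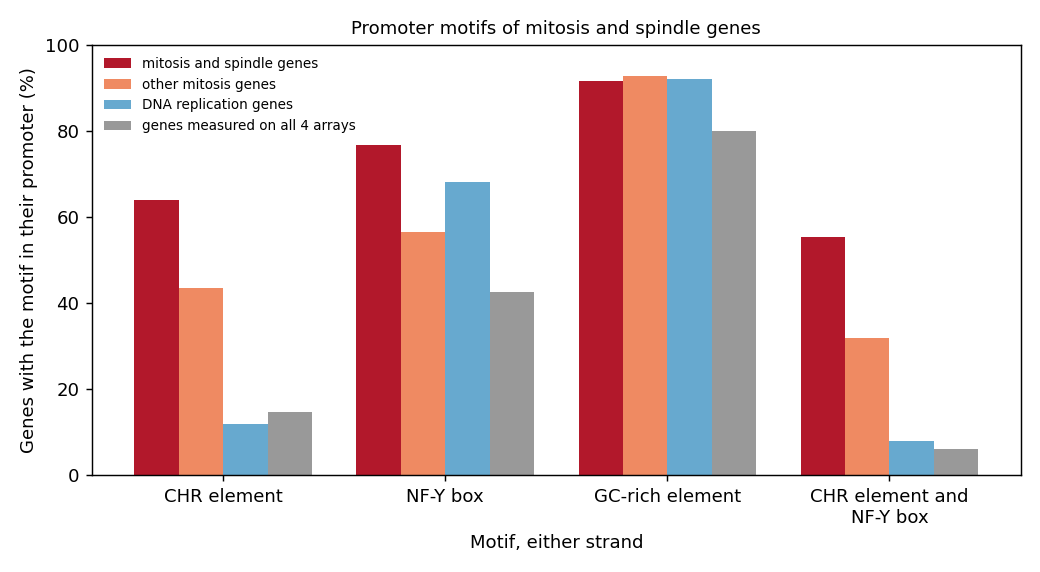
Share of genes (in %) whose RefSeq promoter holds the CHR element (TTTGAA), the NF-Y box (CCAAT), the GC-rich element (GGCGG), or the CHR element and NF-Y box together, for the mitosis and spindle genes, 2 other gene lists and the genes measured on all 4 arrays. The CHR element stood in 63.8% of the 47 mitosis and spindle genes with an entry. It stood in 14.8% of the 9928 genes measured on all arrays that had an entry by symbol.

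Before the members, the deleted genes were read as a check of the labels. Values are given throughout as levels, the signal of a probe over the 75th percentile of its array, in the order labelled G2KO, labelled G2WT, DKO, its WT. Ccng1 had levels of 1.98, 9.45, 0.00685 and 1.66, and on the DKO array it was not well above background, at least 228-fold below its WT. This is what the label of that array states for Ccng1. Ccng2 had levels of 0.0910, 0.104, 0.0619 and 0.0807, so that its probe did not set CycG2-/- arrays apart from WT. Which part of Ccng2 was removed is not given in the sources used here, so its probe cannot settle the labels of the G2KO comparison. On each array 65.0 to 72.2% of the probes were well above background and no spot was saturated. All 4 arrays lay on 1 slide. As to cell type, 11 to 14 of 14 fibroblast markers were well above background, with collagen and vimentin genes high on every array. Other markers differed. On DKO, 6 of the 14 were at least 2-fold lower than on its WT (9.34% of all genes) and 1 was higher (10.3%). The lowest log2 ratio was -7.54. On the WT of the DKO comparison, 8 were higher than on the array labelled G2WT (11.5% of all genes) and 0 lower (9.74%). With the G2KO labels exchanged, 3 would be higher (4.73% of all genes) and 1 lower (4.21%). On the array labelled G2WT, Pdgfra and Fap did not stand well above background. The neural progenitor list, with 4 to 6 of 9 genes well above background on each array, had a summed level of 65.6 on that same array and 3.00 to 16.2 on the others. The smooth muscle list had 362 there and 42.6 to 266 on the others, the endothelial list 3.10 to 4.45 and the macrophage list 0.685 to 0.926. Of the endothelial sum, Kdr alone made up 3.00, 4.36, 3.90 and 4.31. The mesothelial marker list, with 12 of 13 genes well above background on the DKO array and 4 to 6 on the others, had a summed level of 150 there against 0.706 to 1.73 elsewhere.

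The main pattern was a split by comparison and not by genotype. Of the 55 members, 44 had levels at least 2-fold higher on both arrays of the G2KO comparison than on both arrays of the DKO comparison. Over all genes well above background on at least 1 array this was so for 1.06% (259 of 24495), and this way of counting was chosen after the values were seen. At any size of difference it held for 52 members and 15.2% of all genes. The exceptions were Pttg1, Ckap2 and Gtse1, which were higher on DKO than on one of the arrays of the G2KO comparison. The array labelled G2WT had the highest level for 52 members (33.6% of all genes), and the array labelled G2KO for the other 3, Cdc25b, Ttk and Pttg1 (12.4% of all genes). The lowest level lay on the WT of the DKO comparison for 41 members (15.2% of all genes) and on DKO for 14 (26.8%). Of the 259 genes split in this way, 44 were members, 34 were on the list of other mitosis genes, 2 were on the DNA replication list, and 179 were on none of these. The split does not depend on which array of the G2KO comparison is the knockout.

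**Figure D2:**
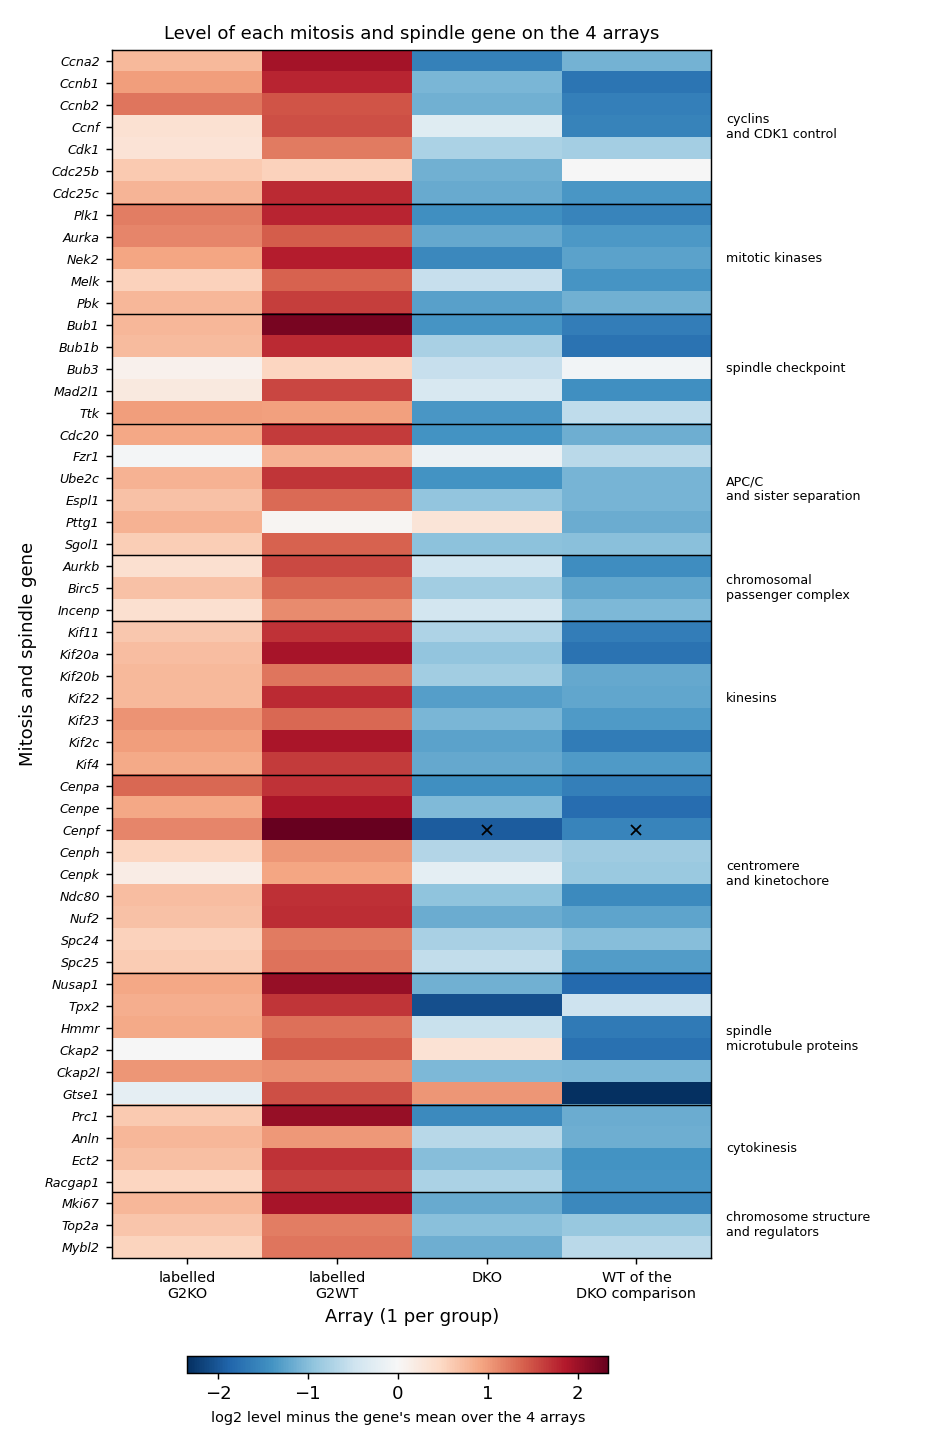
Level of each of the 55 genes (rows, by role) on the 4 arrays (columns), as log2 level minus the gene's own mean over the arrays; crosses mark values not well above background. The columns of the G2KO comparison are red for nearly every gene and those of the DKO comparison blue, with Gtse1, Ckap2 and Pttg1 as the exceptions.

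In these genes the arrays labelled WT differed from each other more than either array labelled as a knockout differed from its WT. With the labels of the G2KO comparison exchanged, the WT arrays would still differ more, at 52 members lower and a median log2 ratio of -1.92. In the ratio of the WT of the DKO comparison over the array labelled G2WT, 53 of 55 members were at least 2-fold lower (9.74% of all genes) and 0 were higher (11.5% of all genes). Their median log2 ratio was -2.96, which is 7.76-fold lower, beside a median of -0.067 over 22544 genes. Cdc25b (-0.55) and Bub3 (-0.56) were the members within 2-fold. Ratios given below between the WT arrays are of this pair, by its labels. With the G2KO labels exchanged, the array labelled G2KO would stand in place of the array labelled G2WT. Set against each other across comparisons, the array labelled G2KO over the WT of the DKO comparison had 52 members at least 2-fold higher (4.21% of all genes) and 0 lower (4.73%), with a median of 1.92. DKO over the array labelled G2WT had 52 at least 2-fold lower (11.8% of all genes) and 0 higher (14%), with a median of -2.40. These ratios share arrays with the ones before and are not separate evidence. DKO over the array labelled G2KO, a pair added after the values were seen, had 45 lower (10% of all genes) and 1 higher (13.6%), the higher one being Gtse1.

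**Figure D3:**
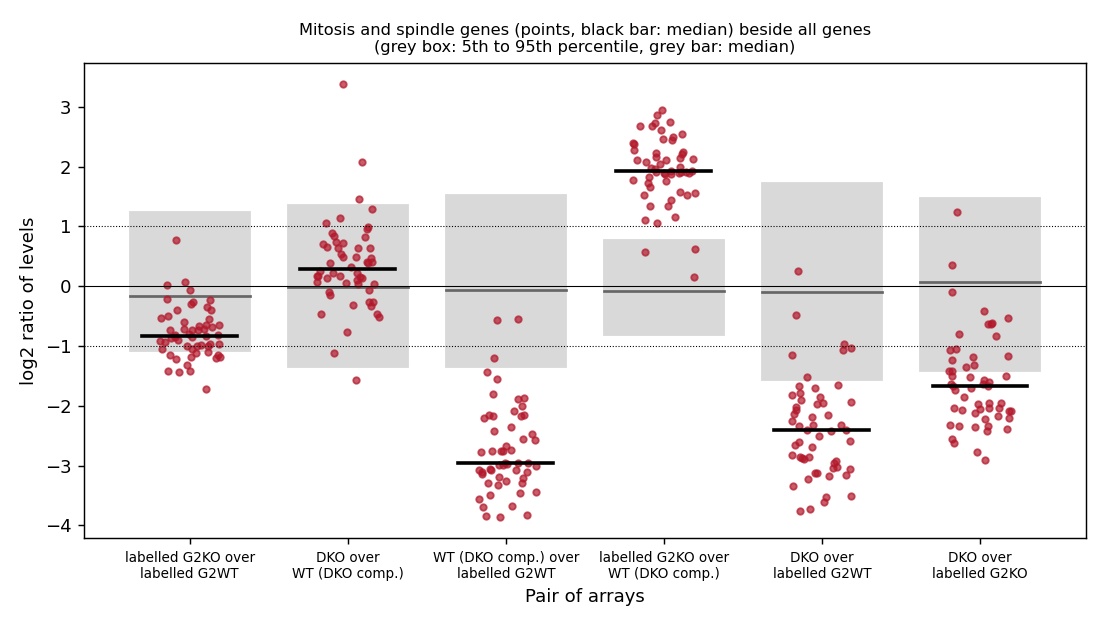
log2 ratio of levels (vertical axis) for the members (points; black bar, median) in each of the 6 pairs of arrays, beside the 5th to 95th percentile of the 19466 genes well above background on all 4 arrays (grey box; grey bar, median). The members' medians lie inside the box in both knockout comparisons and outside it in the 4 pairs of arrays from different comparisons.

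Across all genes the order of closeness was another. Over the 19466 genes well above background on all 4 arrays, the log2 ratios of the array labelled G2KO over the WT of the DKO comparison had the smallest SD of the 6 pairs, 0.538, and yet the members' median there was 1.92, above the 95th percentile of 0.765. The SD was 0.878 for labelled G2KO over labelled G2WT, 1.04 for DKO over its WT and 1.02 for the arrays labelled WT. So the pair of arrays most alike over these genes still differed in the mitosis genes. With the G2KO labels exchanged, this closest pair would be the WT arrays. The SD of 1.02 would then be that of a knockout against the WT of the other comparison.

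Genes that restrain the cell cycle differed between the same cultures. Cdkn2a, Cdkn2b and Cdkn1a are shown, out of a list of 7 CDK inhibitors. On DKO, 1 of the 7 was at least 2-fold higher than on its WT (10.3% of all genes) and 2 were lower (9.34%). Their log2 ratios ran from -5.05 to 3.13, and the lowest belongs to a gene not shown. Over the array labelled G2WT, the array labelled G2KO had 3 of the 7 higher (8.73% of all genes) and 2 lower (8.36%). The WT of the DKO comparison had 3 higher (11.5%) and 2 lower (9.74%) over the array labelled G2WT. The list thus ran both ways against that array. Of the 7, 1 showed the 2-fold split of the members (1.06% of all genes). Cdkn2a encodes the CDK4 and CDK6 inhibitor p16 and the p53 stabilizer ARF. It had levels of 24.3, 0.0157, 5.09 and 23.3, the lowest by far on the array labelled G2WT, where the mitosis genes were highest. Cdkn2a was near equal on the array labelled G2KO and the WT of the DKO comparison. The members' median log2 ratio of that pair was 1.92. Its neighbour Cdkn2b (p15) had levels of 4.07, 0.00392, 4.03 and 6.31 and was not well above background on that array. Cdkn1a, encoding p21, went another way, with 0.644, 8.20, 5.00 and 0.572. It was high on the array labelled G2WT and on DKO, and low on the other arrays. The part of these genes and of the neural progenitor, smooth muscle and mesothelial markers in the members' levels was not tested.

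Cyclins and the control of CDK1, the kinase that drives entry into mitosis, had 7 members. Ccnb1, the cyclin that activates CDK1 at mitotic entry, had levels of 4.53, 7.94, 1.10 and 0.704. Ccna2, the cyclin of S and G2 phase, had 7.08, 16.1, 1.39 and 1.93. Cdk1 itself had 3.75, 7.01, 1.81 and 1.75, so that its log2 ratio between the WT arrays (-2.0) was smaller than those of Ccnb1 (-3.50) and Ccna2 (-3.06). All 3 were highest on the array labelled G2WT and at least 2-fold higher on both arrays of that comparison than on the others. Ccnf, the cyclin that serves as substrate receptor of an SCF ubiquitin ligase, had levels of 2.06, 4.57, 1.33 and 0.545 and was 2.44-fold higher on DKO than on its WT. Cdc25b, a phosphatase that switches CDK1 on, had 2.53, 2.40, 0.756 and 1.64. It was one of the least variable members, its difference being the lower level on DKO, 2.17-fold below its WT. Ccnb2 and Cdc25c followed Ccnb1, with log2 ratios of -3.07 and -3.11 between the WT arrays.

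All 5 mitotic kinases showed the split. Plk1, which acts in centrosome maturation, the kinetochore and cytokinesis, had levels of 9.58, 14.4, 1.55 and 1.44. Nek2, a centrosome kinase, had 0.670, 1.27, 0.125 and 0.150. Both fell into a high and a low pair of arrays, with gaps of 6.20-fold for Plk1 and 4.48-fold for Nek2 between the lower array of the G2KO comparison and the higher array of the DKO comparison. Melk had 1.16, 2.06, 0.552 and 0.307, and was 1.80-fold higher on DKO than on its WT. Aurka and Pbk had gaps of 5.07-fold and 3.71-fold.

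Of the 5 genes of the spindle checkpoint, which delays anaphase until every kinetochore is attached, 3 passed the 2-fold split. Bub1, its kinase at the kinetochore, had levels of 1.09, 2.95, 0.242 and 0.207. Its probe was spotted 10 times on each array, so it is also the member with the smallest spot error, 0.065 in the log2 ratio against 0.204 for a typical single spot by the scanner software's error model. The difference of 14.2-fold between the arrays labelled WT was among the widest of all members. With the G2KO labels exchanged it would be 5.25-fold. Bub3, the partner protein of BUB1, had 7.17, 9.50, 4.65 and 6.45, and all 4 of these lay within 2.04-fold. Its promoter is among those printed above. Bub1b (BUBR1) had 1.23, 2.47, 0.434 and 0.223. Mad2l1, the protein that binds and restrains CDC20, had 3.11, 7.78, 2.04 and 0.978. For Mad2l1 the 3 probes gave DKO log2 ratios of 1.06, 1.74 and 2.66, alike in direction but not in size. Ttk (the kinase MPS1) had 0.277, 0.272, 0.0545 and 0.0932, nearly equal on both arrays of the G2KO comparison.

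Among the genes of the APC/C and of sister separation, the co-activator Cdc20 had levels of 10.9, 17.9, 2.18 and 2.63, and Ube2c, the ubiquitin-conjugating enzyme of the APC/C, 8.31, 15.1, 1.81 and 2.24. Both had their lowest level on DKO, and both showed the split. Fzr1 (CDH1), the co-activator of late mitosis and G1, had 3.44, 6.27, 3.22 and 2.31 and differed less, with nearly equal levels on the array labelled G2KO and on DKO. Pttg1, or securin, which holds separase inactive until anaphase, had 9.39, 5.47, 6.51 and 2.38. DKO was above the array labelled G2WT (log2 ratio of 0.25) and 2.74-fold above its own WT. The probe of Pttg1 lies at chr11:43233801-43233860 (mm9, minus strand), and a dimmer second probe gave a log2 ratio of 0.87 for DKO over its WT and 1.54 for labelled G2KO over labelled G2WT, in place of 1.45 and 0.78. On that probe DKO and the array labelled G2WT were alike (-0.015), so this order rests on the brighter probe. Sgol1 (shugoshin), the protector of centromeric cohesin, had 2.45, 4.28, 0.853 and 0.834. Espl1 (separase) had a log2 ratio of -2.43 between the WT arrays.

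In the chromosomal passenger complex, Aurkb, its kinase, had levels of 0.0421, 0.0957, 0.0237 and 0.0119. These are low signals, and the error model gave 0.336 for its DKO log2 ratio of 0.99. Incenp, the scaffold of the complex, had 10.1, 16.6, 5.77 and 3.71, and Birc5 (survivin) had a log2 ratio of -2.55 between the WT arrays. From high to low, all 3 had the order labelled G2WT, labelled G2KO, DKO, WT of the DKO comparison. Only Birc5 passed the 2-fold split.

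All 7 kinesins, the motor proteins of the spindle and midzone, passed the 2-fold split. Kif20a, a motor of the midzone and cytokinesis, had levels of 4.21, 9.77, 1.35 and 0.768. Kif2c (MCAK), which depolymerizes microtubules at the kinetochore, had 0.370, 0.710, 0.0789 and 0.0602. Kif20b had 2.72, 3.86, 0.914 and 0.699. Each had its high pair of arrays in the G2KO comparison and its lowest level on the WT of the DKO comparison. Kif11 (Eg5), the motor that pushes the spindle poles apart, had a log2 ratio of -3.30 between the WT arrays. Kif22, Kif23 and Kif4 lay between -2.67 and -2.96.

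Of the 9 centromere and kinetochore genes, 8 passed the 2-fold split. Cenpe, the kinetochore motor of chromosome congression, had levels of 7.07, 14.2, 1.83 and 1.10. Cenpf had 0.0430, 0.0985, 0.00506 and 0.00665, and was the only member not well above background somewhere, on both arrays of the DKO comparison. Its level on the WT of the DKO comparison was lower by at least 9.61-fold than on the array labelled G2WT, and it has no ratio between DKO and its WT. Cenpk had 1.45, 2.42, 1.09 and 0.698 and was the gene of this role that missed the split. Nuf2, a subunit of the NDC80 complex that holds the microtubule, had 0.786, 1.63, 0.218 and 0.207. A dimmer probe of Nuf2 was not well above background on DKO and gave at most -1.90 for its DKO log2 ratio in place of 0.07. Cenpa, Cenph, Ndc80, Spc24 and Spc25 had log2 ratios between -1.87 and -3.29 for the WT arrays.

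The spindle microtubule proteins held the members that differed most between DKO and its WT. Gtse1, a protein that stabilizes microtubules in mitosis and restrains p53 in G2, had levels of 0.684, 2.26, 1.62 and 0.156 (probe at chr15:85706887-85706946, mm9, plus strand). It was high on the array labelled G2WT and on DKO and low on the other arrays, 10.4-fold higher on DKO than on its WT and 3.30-fold lower on the array labelled G2KO than on the array labelled G2WT. Ckap2 had 0.802, 2.15, 1.03 and 0.243, the same shape, with a 4.24-fold higher level on DKO than on its WT. Hmmr had 3.71, 4.90, 1.39 and 0.632. Tpx2, the activator of Aurora A on spindle microtubules, went the other way, with 5.03, 8.89, 0.669 and 1.99, which is 2.97-fold lower on DKO than on its WT. The second probe of Tpx2 gave a log2 ratio of -1.43, near the -1.57 of the first. Nusap1 had 1.45, 3.15, 0.354 and 0.218, with a log2 ratio of -3.86 between the WT arrays, the widest beside the -3.85 of Gtse1 among the members measured on all arrays, since Cenpf has only a bound (at most -3.26). Ckap2l had 0.883, 0.918, 0.209 and 0.205, flat within each comparison and 4.22-fold apart between them.

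All 4 cytokinesis genes and the 3 genes of chromosome structure and transcription passed the split. Prc1, which bundles the antiparallel microtubules of the midzone, had levels of 6.98, 18.7, 1.64 and 2.06, and Anln, the scaffold of the contractile ring, had 18.9, 22.2, 7.03 and 5.01. Prc1 was among the members with the widest ratio of labelled G2KO over labelled G2WT (-1.42) and Anln among those with a narrow one (-0.24). Ect2 and Racgap1, which switch on RhoA at the midzone, had log2 ratios of -3.10 and -2.99 between the WT arrays. Mki67, the Ki-67 coat of mitotic chromosomes and the usual marker of proliferating cells, had 10.4, 23.1, 2.66 and 2.13. The arrays labelled WT differed 10.9-fold in Mki67, whose second probe gave -3.57 beside -3.44 in log2. With the G2KO labels exchanged, the difference would be 4.9-fold. Top2a, the topoisomerase that untangles sister chromatids, had 3.17, 4.65, 1.02 and 1.10. Mybl2, or B-MYB, had 4.81, 7.97, 1.51 and 2.17. Its second probe disagreed, with a log2 ratio of 0.41 between the WT arrays in place of -1.88, so that the direction for Mybl2 rests on the brighter probe.

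The comparison of the arrays labelled G2KO and G2WT was made for loss of CycG2, and its direction rests on labels that read as exchanged. On the array labelled G2KO, 16 of 55 members were at least 2-fold lower (8.36% of all genes) and 0 were at least 2-fold higher (8.73% of all genes). The median log2 ratio was -0.84, beside -0.171 over all genes, and 52 of 55 lay below 0. The lowest were Gtse1 (-1.72), Bub1 (-1.44), Ckap2 (-1.43), Prc1 (-1.42) and Mad2l1 (-1.33), and the members above 0 were Pttg1 (0.78), Cdc25b (0.08) and Ttk (0.03). The count turned on the scaling, since without scaling the median over all genes moved to 0.323 and 1 member was lower and 1 higher. The members' median relative to that of all genes was -0.667 either way. With the labels exchanged, the knockout would have 16 members at least 2-fold higher (8.36% of all genes), 0 lower (8.73%) and a median of 0.84. The pair therefore shows a difference in these genes without a settled direction. Set against the WT of the DKO comparison, the direction turned, with 52 members higher and 0 lower.

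The comparison of DKO with its WT was made for loss of both cyclins. There 6 of 54 members were at least 2-fold higher, a share of 11.1% beside 10.3% of all genes, and 2 were at least 2-fold lower, 3.70% beside 9.34% of all genes. The higher ones were Gtse1 (3.37), Ckap2 (2.08), Pttg1 (1.45), Ccnf (1.29), Hmmr (1.14) and Mad2l1 (1.06), and the lower ones Tpx2 (-1.57) and Cdc25b (-1.12). The median log2 ratio was 0.29, beside 0.013 over all genes. Set against the array labelled G2WT, 0 members were higher and 52 lower. Over the 54 members measured on all arrays, the log2 ratios of both comparisons, which share no array, had a Pearson correlation of -0.316 across genes, and over 19466 genes it was -0.281. Genes are not independent replicates, and with the G2KO labels exchanged the sign of both correlations turns.

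**Figure D4:**
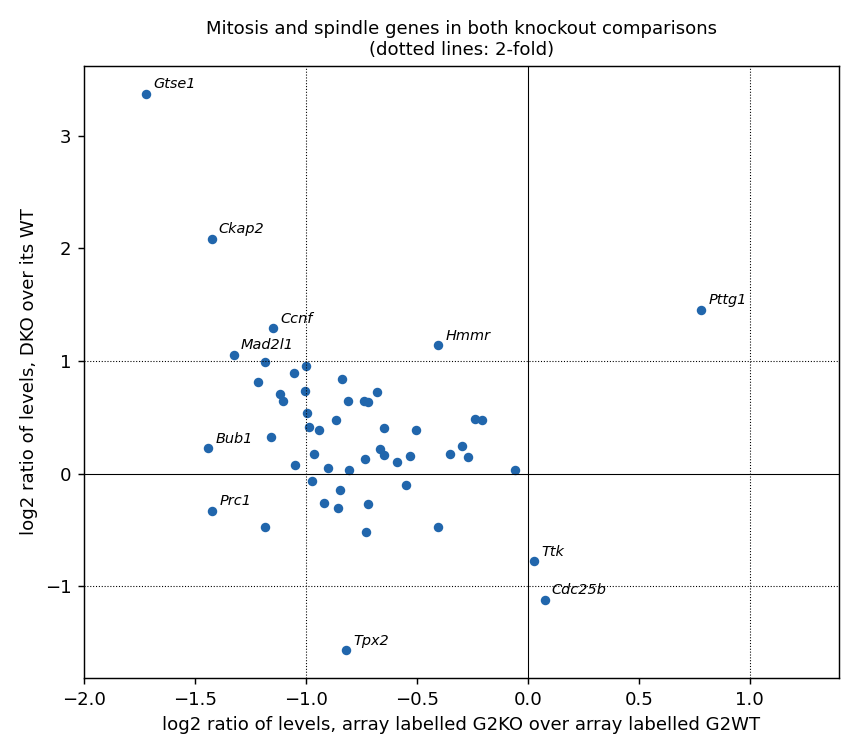
log2 ratio of each member in DKO over its WT (vertical axis) against that in the array labelled G2KO over the array labelled G2WT (horizontal axis); dotted lines mark 2-fold. Gtse1, Ckap2, Ccnf and Mad2l1 are at least 2-fold lower in one and higher in the other, and Pttg1 is above 0 in both; with the G2KO labels exchanged the horizontal axis turns and these 4 genes are higher in both.

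The wider cell cycle program was read from gene lists outside the members. Between the WT arrays, 52 of 79 other mitosis genes were at least 2-fold lower and 0 higher, with a median log2 ratio of -1.51. Over all genes 9.74% were lower and 11.5% higher. Of 29 DNA replication genes 14 were lower and 0 higher, with a median of -1.0, and of 21 regulators of the program 8 were lower and 0 higher, with -0.68. The members, at a median of -2.96, stood at the far end of these lists. With the G2KO labels exchanged, 38 of 79 other mitosis genes, 3 of 29 DNA replication genes and 2 of 21 regulators would be lower. None would be higher, beside 4.21% of all genes lower and 4.73% higher. The differences would be smaller too. For the array labelled G2KO over the WT of the DKO comparison, the 3 lists had medians of 0.931, 0.316 and 0.327. Cdca3 (levels of 3.52, 8.61, 1.45 and 0.524) and Kifc1 (1.53, 3.39, 1.20 and 0.373) were among the widest other mitosis genes. Foxm1, the activator of G2 and M phase genes, had 1.14, 2.86, 0.547 and 0.342, the order of arrays that most members had. The DREAM subunits Lin37, Lin52 and Lin54 lay within 2-fold in all 3 comparisons, and so did the NF-Y genes Nfya, Nfyb and Nfyc. Lin9 was 2-fold or more lower on DKO than on its WT (-1.16) and within 2-fold in the other comparisons.

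Subgroups of these lists, formed after the values were seen, differed in size. None of the 12 APC/C core subunits was at least 2-fold different between the WT arrays (median -0.17), whereas the APC/C partners Cdc20 and Ube2c were 6.80-fold and 6.74-fold lower. Of the 8 condensin subunits 6 were lower (median -1.77), of 24 other kinetochore genes 16 (median -1.73), and of the 6 MCM helicase subunits 1 (median -0.57). Over all genes 9.74% were lower. With the G2KO labels exchanged these counts would be 4, 13 and 0, beside 4.21% of all genes. Cdc20 and Ube2c would then be 4.13-fold and 3.72-fold lower. In DKO over its WT, 4 of 79 other mitosis genes were higher (5.06%, beside 10.3% of all genes) and 5 lower (6.33%, beside 9.34%), among the lower Ube2s (-1.88), the APC/C enzyme that extends ubiquitin chains. Ccne1 (-1.43), cyclin E1, was the DNA replication gene past 2-fold.

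**Figure D5:**
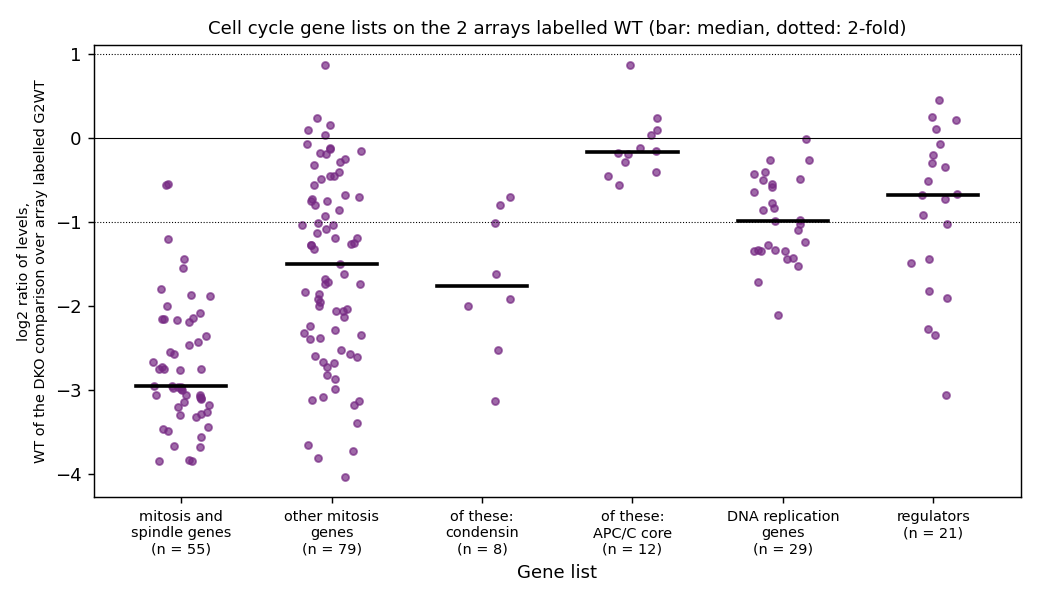
log2 ratio of levels on the WT of the DKO comparison over the array labelled G2WT (vertical axis) for the members and the other gene lists; each point is a gene, bars are medians and dotted lines mark 2-fold. The members have a median of -2.96, condensin -1.77 and the APC/C core subunits -0.17.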

How the data were processed

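RNA from each of the 4 MEF cultures was labelled with Cy3 and hybridized to an Agilent mouse array of its own, although the study's methods describe dye swaps for G2KO. The authors obtained background-corrected spot intensity values using Agilent's software Feature Extraction, whose version is 10.7.3.1 by the headers and 10.5.1.1 by the submitters' processing notes. The deposited table holds the same intensity for every spot (largest log2 difference 0) and served as an alternative. Control spots and 107 to 140 outlier spots per array were left out. Each intensity was divided by its array's 75th percentile (signals of 1586 to 2234) before log2 was taken, spots of a probe were averaged, and the brightest probe by mean log2 value stood for its gene. A pair of arrays was compared for a gene if either array had it well above background. A dim side was raised, where its own level was lower, to the lowest level well above background, and the ratio is then a bound. A difference of at least 2-fold was counted. The selection of members was read as naming this scaled level as the measure; read instead as a minimum, 20 members were over the 75th percentile on all 4 arrays.

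With 1 array per group no test was made. Probe positions are those of the files (mm9), and which part of the gene a probe lies in was not determined. Promoters are from RefSeq on GRCm38.p6, matched by symbol or accession for the members and by symbol alone for other genes.

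Members, lists and alternatives were chosen with earlier results of these data known. Genes were named by a rule: in each comparison the 10 members with the largest and the 3 with the smallest ratio, in each role the members with the widest and narrowest range, members dim on an array, members whose probes differed by over 1 in log2 ratio, the targeted genes, and the 3 genes of each other list with the largest DKO ratio. The last part of the rule was not followed for every list. The CDK inhibitor and the fibroblast marker with the lowest DKO ratio, for example, are not named. The remaining members were named to account for each, and other genes after their values were seen. Alternatives were other scalings, background correction, filters, probe rules, fold thresholds and WT arrays, and the G2KO labels exchanged, which was added after the values were seen. Groups were kept as labelled. The ratio calculation was tested on simulated data. Python 3.11.15 with numpy 2.4.6, pandas 2.3.3 and matplotlib 3.10.9, and R 4.3.3 with limma 3.58.1 (normexp background correction only) were used.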

Additional observations from a re-analysis of the deposited data

Results flagged for a closer look

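As labelled, 4 members differed at least 2-fold in opposite directions in the knockout comparisons, lower on the array labelled G2KO than on the array labelled G2WT and higher on DKO than on its WT. The DKO log2 ratio exceeded the G2KO log2 ratio by 5.10 for Gtse1, 3.51 for Ckap2, 2.44 for Ccnf and 2.38 for Mad2l1. This rests on labels that read as exchanged. With the G2KO labels exchanged, all 4 would be higher in both knockouts, with log2 ratios of 1.72 and 3.37 for Gtse1, 1.43 and 2.08 for Ckap2, 1.15 and 1.29 for Ccnf, and 1.33 and 1.06 for Mad2l1. With 1 array per group these differences were not tested. The share of all genes that ran opposite ways was not counted. Over 19466 genes the log2 ratios of both comparisons, as labelled, had a Pearson correlation of -0.281. Outside the members, Cdkn1a had log2 ratios of -3.67 and 3.13 as labelled and of 3.67 and 3.13 with the labels exchanged. Rb1 (-2.02 and 1.26) and E2f2 (-1.24 and 1.12) likewise ran opposite ways as labelled and would run the same way if exchanged, and so would Foxm1 (-1.33 and 0.68). These genes were picked after their values were seen. Of 21 regulators, 6 were at least 2-fold lower on labelled G2KO than on labelled G2WT (8.36% of all genes) and 0 higher (8.73%). On DKO over its WT, 3 were higher (10.3%) and 1 lower (9.34%). How many of the list ran opposite ways was not counted.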

How the results depend on the processing

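No paired analysis was possible because each group has 1 array. The comparison of the WT arrays kept its direction in every alternative run, with 52 or 53 members lower (47 at 4-fold) and a median log2 ratio between -3.14 and -2.71. With the labels of the G2KO comparison exchanged, the G2KO comparison had 16 members higher, 0 lower and a median of 0.84, and the median between the WT arrays was -1.92. The count of members split at least 2-fold between the comparisons was 42 to 46 over 5 other settings. Leaving out 1 array gave 44 to 52, a count that can only stay or rise because a condition is removed. The other WT array decided the knockout comparisons. For G2KO, the WT of the DKO comparison gave 52 members higher, 0 lower and a median of 1.92, and the mean of both WT arrays gave 8 higher, 0 lower and 0.56. For DKO, the array labelled G2WT gave 0 higher, 52 lower and a median of -2.40, and the mean of both gave 1 higher, 33 lower and -1.08. The count of lower members for G2KO was 16, but 1 without scaling or from the deposited table, with 1 higher in each case; it was 41 (1 higher) at 1.5-fold and 0 at 4-fold, and 1 member was higher with the median over probes. For DKO, 18 members were higher at 1.5-fold and 2 at 4-fold, with 0 lower at 4-fold. The shares of all genes at 1.5-fold, at 4-fold and against the mean of both WT arrays were not counted. The members' counts at these settings therefore cannot be read as more or fewer than among all genes. Without scaling the other mitosis genes had 1 higher and 1 lower for G2KO and 1 higher between the WT arrays, the DNA replication genes 0 lower and the regulators 2 lower with a median of 0.13 for G2KO. For DKO 3 DNA replication genes were lower without scaling and 3 with quantile normalization.

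Of 1245 single-gene values recomputed for 37 named members, 36 turned direction, each of them with another WT array. In G2KO against the WT of the DKO comparison the log2 ratio was 1.82 for Aurkb, 2.39 for Bub1, 1.88 for Ccna2, 1.92 for Ccnf, 2.69 for Cenpe, 2.07 for Cenpf, 1.72 for Ckap2, 2.13 for Gtse1, 2.45 for Kif20a, 1.67 for Mad2l1, 2.28 for Mki67, 1.92 for Nuf2, 2.74 for Nusap1 and 1.76 for Prc1. Against the mean of both WT arrays it was 0.32 for Aurkb, 0.48 for Bub1, 0.35 for Ccna2, 0.39 for Ccnf, 0.84 for Cenpe, 0.44 for Cenpf, 0.15 for Ckap2, 0.20 for Gtse1, 0.62 for Kif20a, 0.17 for Mad2l1, 0.56 for Mki67, 0.44 for Nuf2, 0.81 for Nusap1 and 0.17 for Prc1. In DKO against the array labelled G2WT it was -1.78 for Ccnf, -1.06 for Ckap2, -0.48 for Gtse1, -1.82 for Hmmr and -1.93 for Mad2l1, and against the mean -0.25 for Ccnf, -0.34 for Hmmr and -0.44 for Mad2l1. Signal over background limits Cenpf and Aurkb, whose ratio between the WT arrays shrank to -1.58 with normexp correction for both. The number of arrays limits all statements.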
